A study of Sus scrofa with 8 samples.

Results

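Pleiotrophin (PTN), nephronectin (NPNT) and olfactomedin 1 (OLFM1) are secreted proteins whose transcripts were among those most raised in the right ventricle of pigs with a heterozygous PKP2 knockout. They are described here with the PTN paralogue midkine (MDK), the nephronectin receptor subunit ITGA8 and the syndecans SDC3 and SDC4, which gives 7 genes of 30550 in the deposited table. PTN, NPNT and OLFM1 were chosen by their raised FPKM values in PKP2 knockout against wild-type libraries, which is this same comparison, and the other 4 for their relation to them. The differences between the groups are therefore given for all 7 genes as a description, and calls of these genes are quoted only to show what chose them.

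The study sequenced RNA from right ventricular tissue of Sus scrofa, with 4 libraries labelled as heterozygous PKP2 knockout (PKP2_het) and 4 as wild type (WT). PKP2 encodes plakophilin 2, a plaque protein of the desmosomes that hold heart muscle cells together, and its loss of function is a known cause of arrhythmogenic cardiomyopathy, the heart muscle disease these animals are meant to model. The labels used here give no breed, age, sex, litter or founder clone, and none says that each library is a separate animal. The spread described is thus between libraries and may be partly technical.

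Pleiotrophin and midkine form a family of small heparin-binding growth factors, known from growing nerves, vessels and repairing tissue. Both bind heparan and chondroitin sulphate chains, syndecans among their carriers, and cell-surface receptors such as the phosphatase PTPRZ1. Nephronectin is a basement membrane protein with EGF-like repeats, known as a ligand of the integrin formed by ITGA8 and ITGB1. Olfactomedin 1, also called noelin, is a secreted glycoprotein studied mostly in the nervous system.

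The deposited FPKM values (fragments divided by gene length and by a factor per library) correspond to 23637697 to 31313628 fragments assigned to genes per library. PKP2 itself was at 24.6 to 45.9 FPKM in PKP2_het against 52.9 to 72.8 in WT. The groups did not overlap, as for 4.33% of all tested genes with PKP2_het lower. The log2 difference was -0.69, and the limma fit over all genes did not call PKP2 (adjusted p = 0.164). PKP2_het replicate 3 stood apart in several respects: 52.1% of its fragments were mitochondrial, against 21.1% to 37.6% in the other 7 libraries, and its PKP2 level was the lowest. Cardiomyocytes are the labelled cell type, although RNA was taken from ventricular tissue. Summed levels of 11 cardiomyocyte markers were 27836.5 to 37101.2 FPKM in PKP2_het against 27825.9 to 32828.3 in WT, and markers of fibroblasts, vessels and nerves were present in every library.

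PTN was barely detected in WT and stood at a low but clear level in PKP2_het. It was at 3.09, 3.38, 4.25 and 3.60 FPKM in PKP2_het replicates 1 to 4, and at 0.632, 0.493, 0.252 and 0.230 FPKM in WT replicates 1 to 4. Every PKP2_het library was above every WT library, and the WT values varied most among themselves, with a coefficient of variation of 48.4% against 13.8% in PKP2_het. The WT values rest on 11 to 24 fragments per library, 70 in all (exact Poisson 95% interval 54.6 to 88.4, which covers counting error only), against 139 to 162 fragments in each PKP2_het library.

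The ratio of the PTN means was 8.91, and the difference of log2(FPKM + 1) was 1.71 with a standard error of 0.12. The added 1 FPKM compresses this difference: with fragments recovered from the FPKM values and the voom method it was 3.27. PTN reached 1 FPKM in all 4 PKP2_het libraries and in 0 WT libraries. It therefore passed the filter of at least 1 FPKM in at least 4 libraries only through the group in which it is high, so a gene passing in this way had to differ. A pair of long noncoding RNA genes, LOC106506761 and LOC110257606, overlap PTN on the opposite strand. Their mean levels were 0.0458 and 0.0124 FPKM in PKP2_het, far below PTN.

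**Figure D1:**
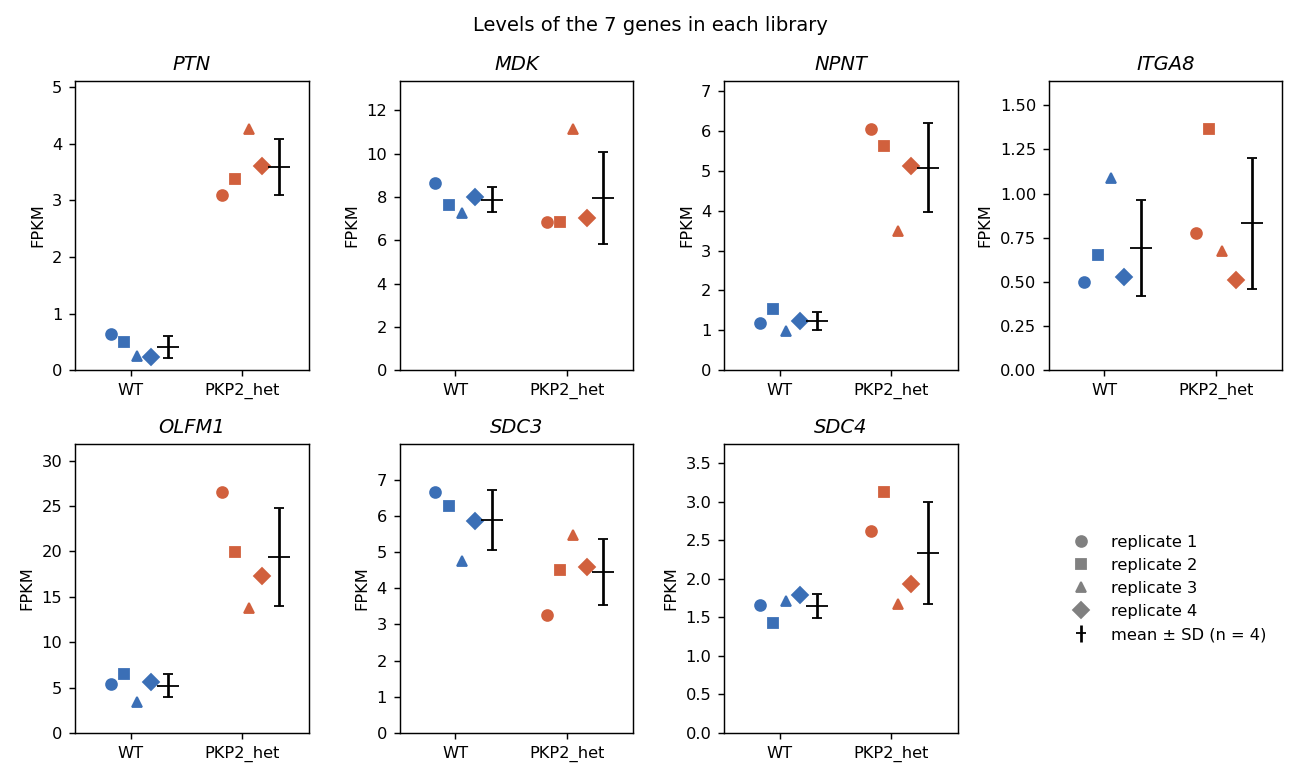
FPKM of the 7 genes in each library (points, shape by replicate; blue WT, orange PKP2_het) with the mean and SD of 4 libraries beside them; each panel has its own axis from 0. PTN, NPNT and OLFM1 separate the groups, whereas MDK, ITGA8, SDC3 and SDC4 overlap, and MDK has 1 PKP2_het library at 11.1 FPKM.

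MDK, the paralogue of PTN, was the more abundant of the pair in every library and did not follow it between the groups. Its level was 6.85, 6.83, 11.1 and 7.02 FPKM in PKP2_het replicates 1 to 4, and 8.65, 7.61, 7.26 and 8.02 FPKM in WT replicates 1 to 4. The PKP2_het mean owes its height to replicate 3: the mean was 7.96 ± 2.12 FPKM (SD, n = 4) with that library and 6.90 ± 0.101 FPKM (SD, n = 3) without it, against 7.88 ± 0.599 FPKM (SD, n = 4) in WT. The log2 difference was -0.01 with a standard error of 0.15 over all libraries. Without PKP2_het replicate 3 it was -0.17 with a standard error of 0.08, and MDK was not called (limma adjusted p = 0.357). All 3 remaining libraries then lay below all WT libraries. The share of all tested genes separating in this way was not counted. MDK overlaps the muscarinic receptor gene CHRM4 on the opposite strand, which was at 0 in every library.

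Because the values are per gene length, PTN and MDK can be set against each other within a library. PTN amounted to 5.03 ± 2.19% of the MDK level in WT (SD, n = 4; range 2.87% to 7.31%) and to 46.0 ± 5.82% in PKP2_het (range 38.2% to 51.3%). PTN thus held 27.6% to 33.9% of the summed PTN and MDK level in PKP2_het, against 2.79% to 6.81% in WT. The sum of both ligands was 9.94 to 15.4 FPKM in PKP2_het against 7.51 to 9.29 in WT. This ratio does not depend on how libraries were scaled, and PKP2_het replicate 3, with its high MDK, had the lowest ratio of its group.

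**Figure D2:**
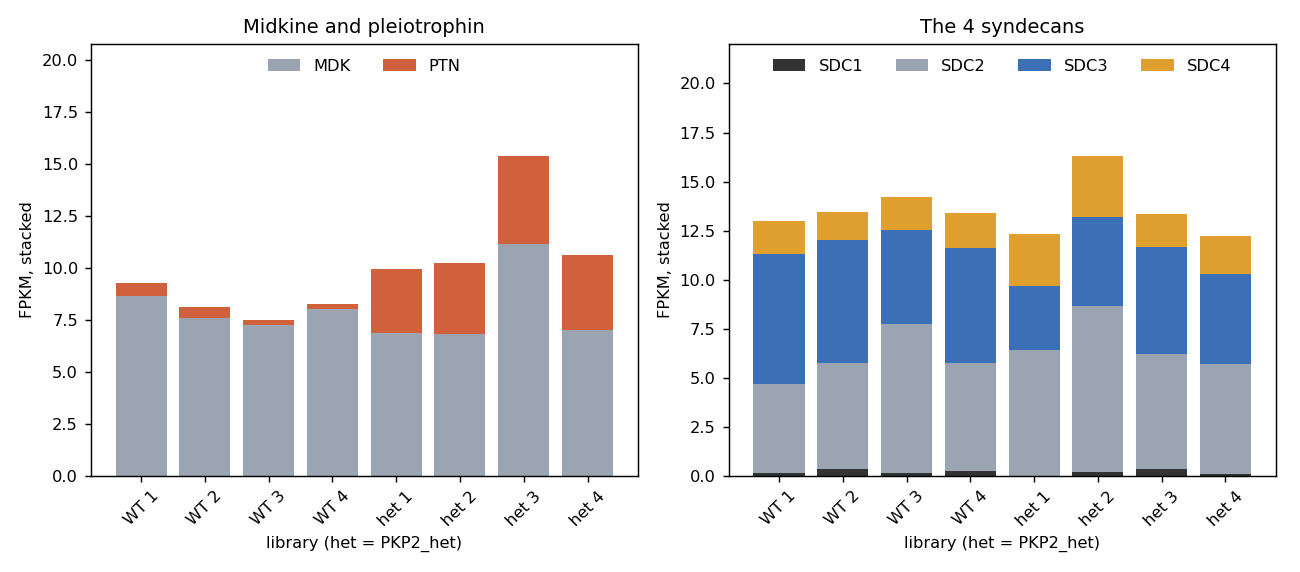
Stacked FPKM per library of MDK and PTN (left) and of the 4 syndecans (right), WT libraries first. PTN is a thin cap on MDK in WT and 27.6% to 33.9% of the stack in PKP2_het, while the syndecan stacks reach 12.2 to 16.3 FPKM in PKP2_het and 13.0 to 14.2 FPKM in WT.

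NPNT was low in WT, close to its receptor subunit ITGA8, and several times higher in PKP2_het. It stood at 6.04, 5.63, 3.50 and 5.12 FPKM in PKP2_het replicates 1 to 4, and at 1.19, 1.54, 0.993 and 1.23 FPKM in WT replicates 1 to 4. The groups did not overlap, and PKP2_het replicate 3 was the lowest of its group, with 435 fragments against 724 to 887. The ratio of means was 4.10, or 4.52 without that library, and the log2 difference was 1.43 with a standard error of 0.15.

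ITGA8, the integrin subunit that binds nephronectin, stayed near 1 FPKM or below. Its level was 0.777, 1.36, 0.673 and 0.510 FPKM in PKP2_het replicates 1 to 4, and 0.499, 0.651, 1.09 and 0.526 FPKM in WT replicates 1 to 4. The groups overlapped throughout, and ITGA8 did not pass the filter, with 2 of 8 libraries at 1 FPKM or more. In a fit without the filter its log2 difference was 0.11 with a standard error of 0.16. NPNT was 4.13 to 10.04 times the ITGA8 level in PKP2_het and 0.914 to 2.39 times in WT. ITGB1, the partner chain of ITGA8, was far more abundant, at 39.1 ± 8.20 FPKM in PKP2_het against 42.2 ± 3.50 in WT (SD, n = 4), so ITGA8 amounted to 1.07% to 3.33% of it over the 8 libraries.

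OLFM1 had the highest level of the 7 genes in PKP2_het. It was at 26.6, 20.0, 13.8 and 17.3 FPKM in PKP2_het replicates 1 to 4, and at 5.36, 6.54, 3.42 and 5.58 FPKM in WT replicates 1 to 4. The lowest PKP2_het library, replicate 3, was still above the highest WT library. The ratio of means was 3.72, and the log2 difference was 1.70 with a standard error of 0.21. Among the 10757 genes past the filter, the mean OLFM1 level exceeded that of 81.0% of genes in PKP2_het and of 47.4% in WT.

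SDC3 and SDC4, the syndecans, lay in opposite directions, with smaller differences than the 3 secreted proteins. SDC3, known as a pleiotrophin receptor in nerve tissue, was at 3.26, 4.49, 5.47 and 4.59 FPKM in PKP2_het replicates 1 to 4, and at 6.66, 6.26, 4.76 and 5.84 FPKM in WT replicates 1 to 4. SDC4, a syndecan of focal adhesions, was at 2.62, 3.13, 1.67 and 1.93 FPKM in PKP2_het and at 1.66, 1.43, 1.71 and 1.79 FPKM in WT, in the same order. In both genes the groups overlapped. For SDC3 the overlap lay between PKP2_het replicate 3 and WT replicate 3, and for SDC4 PKP2_het replicate 3 lay within the WT range. The log2 difference was -0.34 with a standard error of 0.15 for SDC3 and 0.31 with a standard error of 0.14 for SDC4. Over all libraries limma called neither gene (adjusted p = 0.360 and 0.384). Without PKP2_het replicate 3 it was -0.43 and 0.41, and limma called neither gene (adjusted p = 0.1485 and 0.1297). The groups then did not overlap in either gene. Fewer libraries separate more easily by chance, and the share of all tested genes doing so was not counted.

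The 4 syndecans together were at 13.5 ± 1.91 FPKM in PKP2_het against 13.5 ± 0.521 in WT (SD, n = 4). SDC3 held 33.1 ± 7.21% of that sum in PKP2_het and 43.7 ± 7.54% in WT, and SDC4 17.2 ± 3.85% and 12.2 ± 1.17%. The remainder was nearly all SDC2, at 6.60 ± 1.30 FPKM in PKP2_het against 5.75 ± 1.32 in WT, while SDC1 was at 0.157 and 0.228 FPKM.

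The order of the levels was not the same in both groups. In WT it ran from MDK over SDC3, OLFM1, SDC4, NPNT and ITGA8 down to PTN. In that order SDC3 and OLFM1 overlapped, as did SDC4 and NPNT, NPNT and ITGA8, and ITGA8 and PTN, whereas MDK stood above SDC3, and OLFM1 above SDC4, in every library. In PKP2_het OLFM1 came first, followed by MDK, NPNT, SDC3, PTN, SDC4 and ITGA8. There OLFM1 was above MDK, MDK above NPNT and SDC4 above ITGA8 without overlap, and the ranges of NPNT, SDC3, PTN and SDC4 each overlapped with the next.

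Of the 6 members past the filter, 3 were called higher and 0 lower by limma (Benjamini-Hochberg adjusted p at most 0.05 over all genes), where the background is 1.15% of tested genes called higher and 0.707% lower. The same 3 had groups that did not overlap, against 4.86% of all tested genes with PKP2_het higher and 4.33% with PKP2_het lower, 9.19% in either direction. PTN, NPNT and OLFM1 are these 3 genes, and the calls are what chose them, so the count repeats the choice and tests nothing. The labels used here give neither litter nor ancestry, so an effect of either cannot be told apart from that of the knockout. In bulk tissue, more cells of a type and more RNA per cell cannot be told apart either.

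NPNT and OLFM1 varied together also among libraries of 1 group. From high to low, both ran through replicates 1, 2, 4 and 3 in PKP2_het and through replicates 2, 4, 1 and 3 in WT. Over the 8 libraries, deviations from the group means had a Pearson r of 0.88, given as a description of libraries that share depth and tissue makeup. By this measure OLFM1 ranked 198 of 9989 tested genes with a symbol in likeness to NPNT, and NPNT ranked 47 in likeness to OLFM1. PTN did not share this pattern, with r of -0.38 against NPNT and -0.19 against OLFM1. Against the other members its r was 0.67 for MDK, 0.82 for SDC3, -0.40 for ITGA8 and -0.59 for SDC4.

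**Figure D3:**
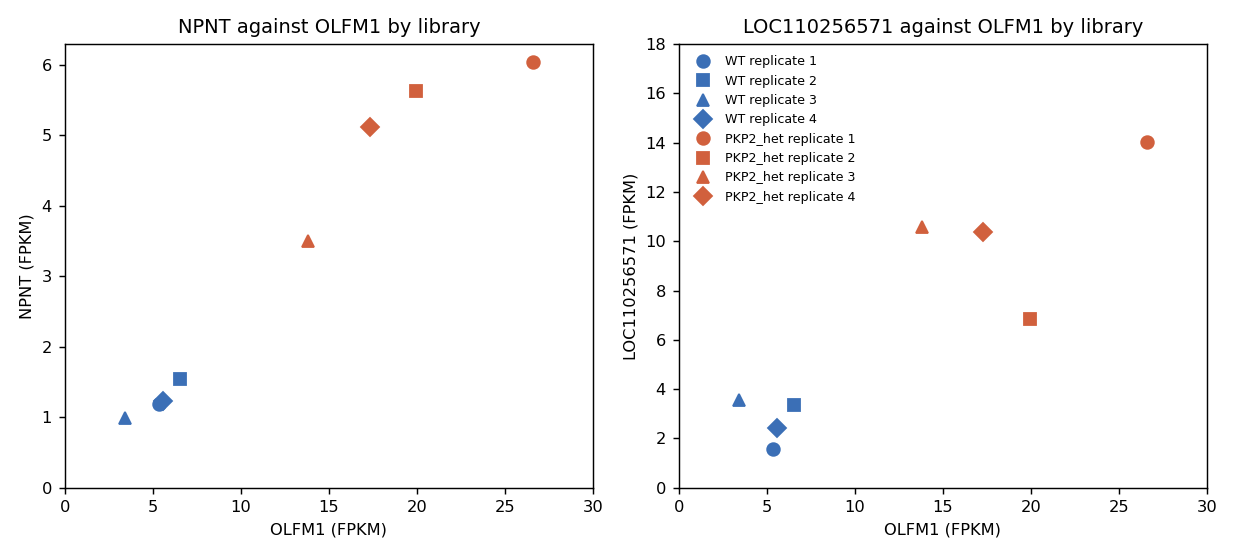
FPKM of NPNT (left) and of the noncoding RNA gene LOC110256571 (right) against OLFM1 in each library (shape by replicate; blue WT, orange PKP2_het). NPNT keeps the order of OLFM1 within both groups; LOC110256571 separates the groups, from 1.57 to 3.57 FPKM in WT and 6.86 to 14.0 FPKM in PKP2_het, without keeping that order.

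Ordered instead by likeness over all 8 libraries, which includes the difference between the groups, OLFM1 and NPNT were each other's nearest gene with a symbol (r = 0.99). Both were chosen for that difference, so a high r was built in and tests nothing. The next were CCDC110 (0.98) and TATDN3 (0.98) for NPNT, and SCMH1 (0.98) and KCND3 (0.97) for OLFM1. KCND3 encodes a potassium channel of the transient outward current. For PTN they were H2AFY, a histone variant gene, at 0.98, PEF1 at 0.97 and ART5 at 0.97. CCDC110, TATDN3 and ART5 reached 1 FPKM in all 4 PKP2_het libraries and in 0 WT libraries. These genes thus passed the filter only through the group in which they are high. Within groups the nearest genes were others: AP3S1, NOVA2 and GRAP for PTN (0.98 to 0.99), EEF1A2, ZNF768 and OGFOD1 for NPNT (0.96 to 0.97) and UBAC1, ASNA1 and PSMG2 for OLFM1 (0.96 to 0.97).

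Pooled over both groups, the members' deviations also went with the mitochondrial share of the library, in which PKP2_het replicate 3 stood furthest out. Over the 8 libraries, deviations from the group means had r of 0.92 for MDK, 0.80 for PTN and 0.70 for SDC3 against the mitochondrial share, and -0.78 for SDC4, -0.76 for NPNT, -0.58 for ITGA8 and -0.46 for OLFM1. PKP2_het replicate 3, at 52.1%, and WT replicate 1, at 37.6%, had the highest PTN, MDK and SDC3 levels of their groups. For NPNT, OLFM1 and SDC4, WT replicate 1 (1.19, 5.36 and 1.66 FPKM) lay within the range of the other WT libraries. A single extreme library can give many genes a high r, and the share of all genes with such r was not counted. The mitochondrial share was 21.1% to 52.1% in PKP2_het and 22.0% to 37.6% in WT, and its part in the levels was not tested. Without PKP2_het replicate 3 the ratios of means of PTN, NPNT and OLFM1 were 8.35, 4.52 and 4.07. Leaving out a library cannot make separate groups overlap, so their separation without it tests nothing.

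**Figure D4:**
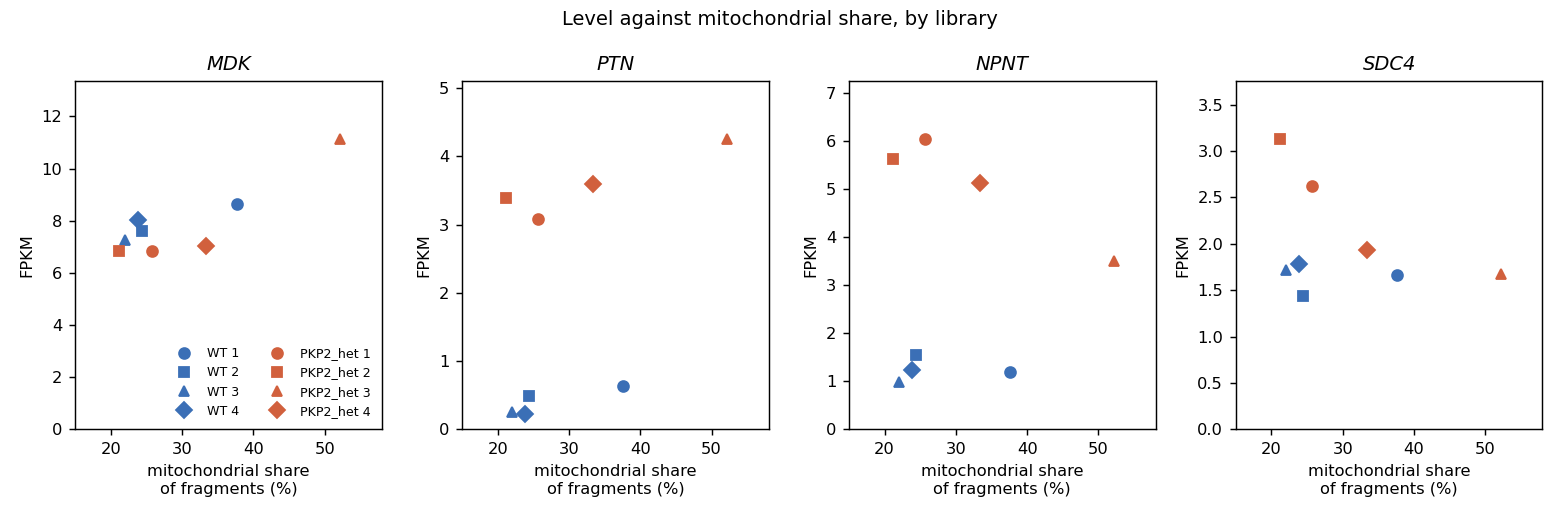
FPKM of MDK, PTN, NPNT and SDC4 against the mitochondrial share of fragments in percent, 1 point per library (shape by replicate; blue WT, orange PKP2_het). PKP2_het replicate 3, at 52.1%, has the highest MDK and PTN and the lowest NPNT and SDC4 of its group.

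The 7 genes lie on 7 chromosomes of Sscrofa11.1, so none shares a locus. OLFM1 (gene 100620523) lies on chromosome 1 from 274236241 to 274261322, NPNT (100624725) on chromosome 8 from 115768963 to 115861170, and PTN (397609) on chromosome 18 from 12219708 to 12309045. MDK is on chromosome 2, ITGA8 on 10, SDC3 on 6 and SDC4 on 17. Of the 14 genes next to a member on either side, 8 passed the filter and 1 was called, where 1.86% of all tested genes were called in either direction.

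That gene, LOC110256571, is an uncharacterised long noncoding RNA gene that starts 15648 bases past the end of OLFM1 on the same strand, from 274276970 to 274280750. It rose from 2.72 ± 0.917 FPKM in WT to 10.5 ± 2.92 FPKM in PKP2_het (SD, n = 4; limma adjusted p = 0.00660), a ratio of means of 3.84 beside 3.72 for OLFM1. Its level was 55.9 ± 17.5% of OLFM1 in PKP2_het and 57.0 ± 32.8% in WT. Within groups it did not follow OLFM1, with r of 0.03 over the 8 libraries. Whether its fragments come from a separate transcript or from an extended OLFM1 transcript was not tested.

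The other genes of these pathways were taken from 7 lists, in which 1 of 110 tested genes was called, or 0.909%, against 1.86% of all genes called in either direction; 14 of the 110, or 12.7%, had an unadjusted p under 0.05, beside 12.8% of all tested genes. The median log2 difference of all tested genes was -0.02. In the list of PTN and MDK receptors and co-receptors 0 of 13 tested genes passed in limma, and the median was -0.08. An unadjusted p under 0.05 was reached by 2 of them, ITGA6, a laminin-binding integrin chain, at a log2 difference of -0.54 (limma adjusted p = 0.177) and THSD7A at 0.41 (0.278).

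The receptors best known for pleiotrophin were scarce in this tissue. PTPRZ1 was at 0.0783 FPKM in PKP2_het against 0.166 in WT, the receptor kinase ALK at 0.131 and 0.176 FPKM, and its relative LTK at 0 in every library. Others were abundant: nucleolin (NCL) was at 63.7 ± 10.9 and 64.6 ± 2.91 FPKM, neuropilin 1 (NRP1) at 24.8 ± 5.01 and 28.6 ± 6.70 FPKM, and the scavenger receptor LRP1 at 10.01 ± 4.04 and 8.16 ± 1.55 FPKM (PKP2_het and WT; SD, n = 4).

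SULF2 was the 1 called gene, in the list of heparan and chondroitin sulphate synthesis and trimming. It encodes an extracellular sulphatase that removes sulphate groups from heparan sulphate chains. SULF2 fell from 7.39 ± 1.70 FPKM in WT to 3.70 ± 0.446 FPKM in PKP2_het (SD, n = 4, limma adjusted p = 0.0238). Its groups did not overlap, as for 4.33% of all tested genes with PKP2_het lower. The call was lost in 8 of 17 alternative settings, with adjusted p-values up to 0.110, among them leaving out PKP2_het replicate 1, 2 or 4 or WT replicate 3 or 4. Of the 26 tested genes of this list 16 had negative and 10 positive differences, with a median of -0.04. CSGALNACT2, an enzyme of chondroitin sulphate synthesis, had the next smallest p, with a log2 difference of 0.37 (limma adjusted p = 0.128).

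**Figure D5:**
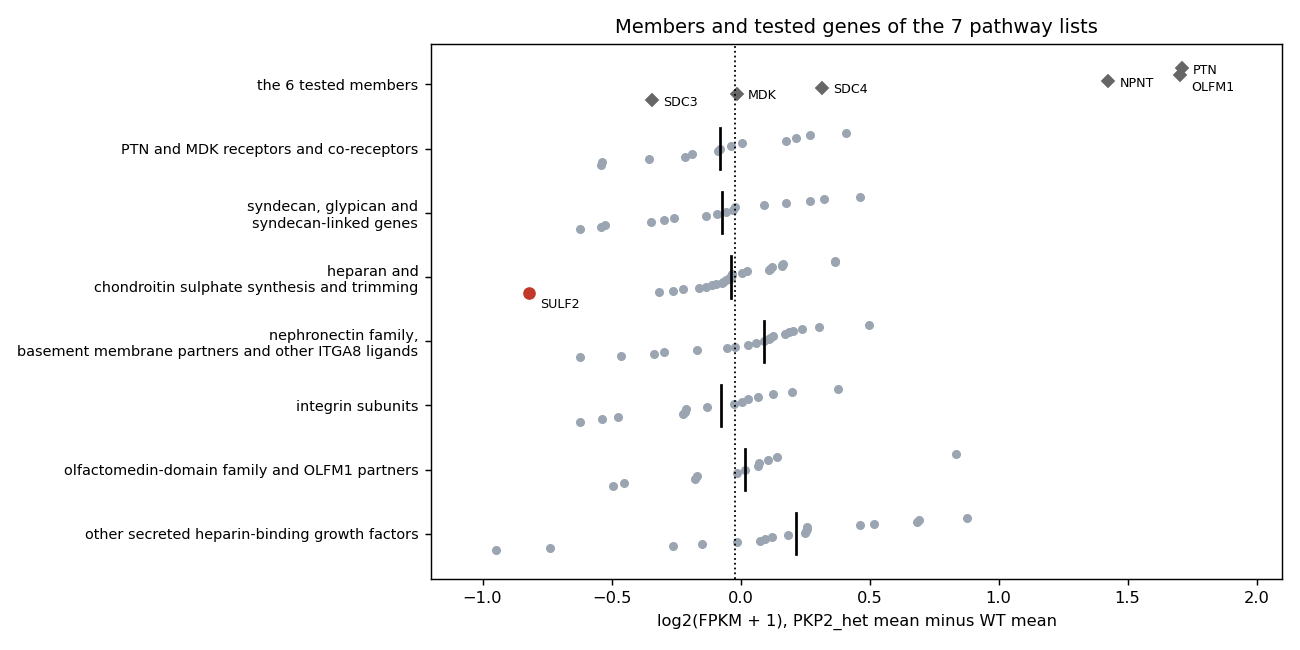
Difference of mean log2(FPKM + 1), PKP2_het minus WT, for the 6 members past the filter (diamonds) and the tested genes of the 7 pathway lists (grey, called gene in red); bars mark list medians and the dotted line the median of all tested genes, -0.02. SULF2 is the called gene. PTN, OLFM1 and NPNT, which were chosen by this same comparison, lie beyond every gene of the lists.

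Syndecan, glypican and syndecan-linked genes had 0 of 16 tested members called in limma; for 2 the unadjusted p was under 0.05. The glypican gene GPC3 was at 9.89 ± 1.70 FPKM in PKP2_het against 6.84 ± 0.373 in WT (SD, n = 4; limma adjusted p = 0.130). AGRN, which encodes the basement membrane proteoglycan agrin, was at 8.26 ± 2.33 and 12.9 ± 0.803 FPKM (limma adjusted p = 0.169).

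Among partners of nephronectin, basement membrane genes and other ITGA8 ligands limma called 0 of 19, with a median of 0.09; for 2 the unadjusted p was under 0.05. COL18A1, a basement membrane collagen, was at 23.5 ± 4.61 FPKM in PKP2_het against 16.1 ± 0.856 in WT (SD, n = 4; limma adjusted p = 0.166), and AGRN was the second. The nephronectin paralogue EGFL6 was scarce, at 0.0845 and 0.0415 FPKM. Vitronectin (VTN), another ligand of the same integrin, was at 18.8 ± 1.65 and 17.6 ± 1.28 FPKM, and fibronectin (FN1) at 7.55 ± 3.35 and 6.74 ± 2.16 FPKM, each above NPNT in mean level. Of 14 tested integrin subunits limma called 0; for 3 the unadjusted p was under 0.05. ITGA6 was one, ITGB2, the leukocyte integrin chain, had a log2 difference of -0.48 (limma adjusted p = 0.213), and ITGA1, a collagen-binding chain, one of -0.62 (0.233).

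No other tested gene of the olfactomedin-domain family, or partner of OLFM1, was called in limma (0 of 11). The unadjusted p was under 0.05 for 1, OLFML2A, at 3.66 ± 1.003 FPKM in PKP2_het against 5.25 ± 0.414 in WT (SD, n = 4; limma adjusted p = 0.265). RTN4, which encodes the neurite inhibitor Nogo, had a log2 difference of -0.49 (adjusted p = 0.463). The paralogues OLFM2, OLFM3 and OLFM4 were at 0.526, 0.132 and 0.0834 FPKM in PKP2_het and did not pass the filter.

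Other secreted heparin-binding growth factors had 0 of 18 called in limma, with 13 positive and 5 negative differences, a median of 0.22 and 3 unadjusted p-values under 0.05. SLIT3, a guidance ligand, was at 2.49 ± 0.593 FPKM in PKP2_het against 1.18 ± 0.472 in WT (SD, n = 4, limma adjusted p = 0.0982). Its lowest PKP2_het value, 1.82 FPKM, lay just above its highest WT value, 1.77 FPKM. Groups did not overlap in this direction for 4.86% of all tested genes. CTGF, a matricellular protein of scarring tissue, was at 28.7 ± 7.98 and 16.6 ± 10.1 FPKM (adjusted p = 0.310). With libraries rescaled to equal sums the median of this list was -0.03, and that of all tested genes -0.23.

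Summed marker levels of other cell types overlapped between the groups, apart from those of lymphocytes, where the marker GNLY made up much of the gap. Summed levels of 12 Schwann cell and neural markers were 55.7 to 59.1 FPKM in PKP2_het against 51.8 to 68.0 in WT, with S100B and NCAM1 highest. They were 299 to 616 and 337 to 424 FPKM for 12 fibroblast markers (DCN and COL3A1 highest), and 370 to 551 and 390 to 550 FPKM for 12 pericyte and smooth muscle markers (RGS5 and ACTA2). They were 6.47 to 8.82 and 5.48 to 7.72 FPKM for 10 mesothelial and epicardial markers (ALDH1A2 and TBX18), and 28.7 to 40.0 and 32.9 to 38.6 FPKM for 12 endocardial and valve markers (TBX20 and CCM2L), with CYTL1 and COMP at 0 in every library.

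The sums were 270 to 552 and 322 to 611 FPKM for 12 endothelial markers (PECAM1 and VWF), 380 to 444 and 296 to 474 FPKM for 12 adipocyte markers (LPL and CFD), and 25.3 to 68.0 and 47.7 to 64.0 FPKM for 12 macrophage markers (C1QC and C1QB). Single markers of endothelium and macrophages lay mostly lower in PKP2_het, with negative differences in 11 of 12 and 10 of 10 tested genes and medians of -0.24 in both lists, or -0.37 and -0.35 without PKP2_het replicate 3, where all tested genes had -0.02 and 0.01; limma called 0 of either list, with 0 and 1 at an unadjusted p under 0.05. For 12 conduction and atrial markers (MYL7 and NPPA) they were 37.1 to 679 and 28.6 to 1190 FPKM. Lymphocyte markers, 12 in number, were at 5.19 to 9.24 FPKM in PKP2_het against 14.3 to 16.6 in WT. Differences were negative in 4 of 4 tested markers, with a median of -0.22, or -0.30 without PKP2_het replicate 3. GNLY, an abundant one, was at 0.641 ± 0.374 FPKM against 6.56 ± 0.603 (SD, n = 4). It passed the filter only through the WT libraries and so had to differ. GNLY alone made up much of the gap between the lymphocyte sums, and the sums without it were not computed. JCHAIN, the other abundant marker, was at 2.62 ± 0.207 FPKM in PKP2_het against 2.91 ± 0.662 in WT (SD, n = 4, limma adjusted p = 0.776). Its groups overlapped. LMOD1, of smooth muscle, was called higher (adjusted p = 0.0346) and lost the call in 9 of 17 alternative settings. The part of cell makeup in the levels of PTN, NPNT and OLFM1 was not tested.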

How the data were processed

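The authors deposited 1 table of FPKM values, 1 column per library; reads of 150 bp were aligned with HISAT2 2.0.5, per the submitters' processing notes and the labels' protocols. Which tool counted fragments, and on which annotation, is not given in the sources used here. Of 30550 genes, 30335 matched the RefSeq table of Sscrofa11.1 by ID, start and end. Multiplied by length, 100% of values were whole multiples of a step per library (tolerance 0.01 fragments), which returned the fragments behind each gene. Their implied scaling matches median-of-ratios factors.

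Genes reaching 1 FPKM in 4 or more of the 8 libraries were compared as log2(FPKM + 1) with limma 3.58.1 in R 4.3.3 (variance trend, Benjamini-Hochberg adjustment, two-sided). The fit was tested on simulated data. The members and lists were chosen with earlier results of these data known. Of the list genes, 5 had no match by symbol. Named genes are the members, their neighbours, called or lowest-p list genes, the 2 most abundant markers of each cell type and the genes nearest in pattern; other receptors and ligands, such as PTPRZ1, were named after their values were seen. The window in the closing observation was also chosen afterwards.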

Additional observations from a re-analysis of the deposited data

Results flagged for a closer look

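MDK in PKP2_het replicate 3, at 11.1 FPKM, lay far from the other 3 libraries of its group, at 6.83 to 7.02 FPKM. The gap to the nearest of them was 0.957 of the whole range, above Dixon's 95% critical value for 4 libraries. It was the 1 group so marked of 16 examined (the 7 genes and PKP2 in both groups), and chance marks about 1 group in 20. The same library had 404 MDK fragments, against 290 to 306 in the rest of its group.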

How the results depend on the processing

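The counts of genes called higher and lower, 124 and 76, became 50 and 45 with libraries rescaled to equal FPKM sums, 367 and 292 with library quality weights, and 51 and 37 with a filter of at least 5 FPKM. They ran from 75 to 195 and from 40 to 119 when 1 library was left out; the highest counts came without PKP2_het replicate 3, and the lowest without WT replicate 4. Of the pathway list genes, 1 was called; the count was 0 with equal FPKM sums, 10 with library quality weights and 0 to 1 with 1 library left out. With a replicate block the counts were 66, 39 and 0. Same-numbered libraries did not deviate together (r from -0.39 to 0.20), and 2 of 8 libraries correlated best with their own number. The cause of these changes was not tested.

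PTN, NPNT and OLFM1 differences stayed positive in every alternative that kept them, from 1.61 to 3.27, 1.27 to 2.02 and 1.48 to 1.89. These genes were chosen by this comparison and their groups did not overlap. Leaving out a library, or changing the pseudocount, filter or block, therefore could not turn the sign. Of the calls that chose these genes, that of OLFM1 was lost with equal FPKM sums (adjusted p = 0.0572), and SDC4 passed with library quality weights (adjusted p = 0.0473), as did ITGA1 (adjusted p = 0.0313). SDC3 stayed negative (-0.57 to -0.23) and SDC4 positive (0.17 to 0.48). MDK was positive in 5 of 17 (-0.25 to 0.04). ITGA8 was fitted only without the filter, and depth limits PTN in WT and ITGA8 most. LOC110256571 lost its call in 1 of 17, with the replicate block (adjusted p = 0.0592). Without a filter SULF2 was not called and MMP9 was. MMP9 was lower in PKP2_het, at 0.0111 FPKM against 0.293 in WT, and below 1 FPKM in every library.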

Other observations

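Within 500 kb of PTN, NPNT and OLFM1, 1 of 8 tested genes was called, beside 1.86% of all tested genes. It was the neighbour of OLFM1 already described. Of 8 genes near OLFM1 3 were tested and LOC110256571 was called; COL5A1, a collagen gene 152977 bases away, had a log2 difference of 0.07 (limma adjusted p = 0.890) and RXRA, a nuclear receptor gene, -0.24 (0.536). Near PTN 3 of 7 genes were tested and 0 called by limma, with 0 at an unadjusted p under 0.05: CHRM2, DGKI and LOC100621475. Near NPNT 2 of 10 were tested and 0 called, with 0 at an unadjusted p under 0.05: AIMP1 and PPA2. CHRM2, a muscarinic receptor gene of the heart, was at 16.2 ± 7.80 FPKM in PKP2_het against 18.3 ± 4.82 in WT (SD, n = 4).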
